A study of Mus musculus with 42 samples.

Results

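The 39 genes described here are antiviral interferon-stimulated genes, a list of transcripts that cells switch on when interferon reaches their surface, and they were followed across 42 bulk MC38 tumors. They were chosen by name from 26811 genes in the count table, by a rule that uses no measured value, although earlier results of these data were known when the list was made. All 39 were found in the table and all 39 passed the filter on low counts, so every count below is out of 39. MC38 is a colon carcinoma line of C57BL/6 origin, and each tumor is a mixture of these cells with the immune, stromal and vascular cells of the host.

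The tumors grew in female F1 mice of the cross CC075/UncJ x C57BL/6J (CC75xB6), 8 to 12 weeks old, after injection of MC38 cells under the skin. From engraftment on, and every 3 days until tumors measured 75 to 110 mm3, mice received aGMCSF (100 μg, an antibody that blocks the myeloid growth factor GM-CSF), aIL2RB (200 μg, an antibody to the β chain that the receptors for IL-2 and IL-15 share), or isotype antibodies matched in dose. A single injection of aPD1 or its isotype control (200 μg) followed, and tumors were taken 48 h later. The groups were isotype control (n = 5), aPD1 (n = 6), aPD1 + aGMCSF (n = 9), aPD1 + aIL2RB (n = 11) and aPD1 + aGMCSF + aIL2RB (n = 11). Each tumor is labelled as a biological replicate, every group carries the same F1 background and tumor line, and no group received a blocking antibody without aPD1. aIL2RB acts on every cell that carries the receptor chain, so T cells and NK cells are among its targets.

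Type I interferons signal through IFNAR1 and IFNAR2 and the kinases JAK1 and TYK2 to a complex named ISGF3, which holds STAT2 and IRF9. ISGF3 binds the interferon-stimulated response element (ISRE) in the promoters of antiviral genes, whereas interferon gamma acts mainly through a different element, the gamma-activated site (GAS), and reaches some of the same genes. In tumors the antiviral program is known from dendritic cells, macrophages and cancer cells that sense nucleic acids, and it comprises RNA sensors, the transcription factors that relay the signal, and effectors that block viral RNA, protein synthesis or budding.

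Several members are neighbors in the genome (GRCm38, GENCODE vM21). The 6 IFIT genes lie on chromosome 19 between Ifit2 (chr19:34550694-34576419) and Ifit1 (chr19:34640871-34650009). Oas2, Oas3, Oas1g and Oas1a lie in that order on chromosome 5 between positions 120730333 and 120907521, with Oas3 ending at 120777661 and Oas1g starting at 120876142. Chromosome 16 holds 6 members, among them Parp9 (plus strand) and Dtx3l (minus strand), which share 682 bases at their 5′ ends. RefSeq promoters (GRCm38.p6, 250 bases before to 50 after the start) were matched for 30 members, with 37 promoters in all. No entry was matched for Mx1, Mx2, Dhx58, Ifi27l2a, Parp9, Parp14, Oas2, Rtp4 and Usp18.

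The ISRE core was searched as 2 copies of GAAA on the same strand with 2 bases between them, and GAS as TTCNNNGAA, each on both strands. The ISRE core was found in a promoter of 16 of the 30 members (53.3%), against 1079 of all 27025 genes with a promoter (3.99%). GAS was found in 6 of 30 members (20%), against 9.55% of all genes. A match describes the letters in this window and is not evidence of a bound factor. The bases 150 to 1 before the start are shown for the 4 members with a promoter entry that changed most with aPD1 (Ifit1bl1, Oas3, Oasl1 and Irf7), and for 3 that are widely used to read the program (Ifit1, Isg15 and Rsad2). Capitals mark an ISRE core, which reads as TTTC repeated when it lies on the opposite strand, and overlapping copies run together.
Ifit1bl1 (chr19:34601969-34602118, minus strand): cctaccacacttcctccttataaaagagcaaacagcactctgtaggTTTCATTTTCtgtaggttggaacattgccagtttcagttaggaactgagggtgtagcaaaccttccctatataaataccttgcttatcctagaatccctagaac
Oas3 (chr5:120777660-120777809, minus strand): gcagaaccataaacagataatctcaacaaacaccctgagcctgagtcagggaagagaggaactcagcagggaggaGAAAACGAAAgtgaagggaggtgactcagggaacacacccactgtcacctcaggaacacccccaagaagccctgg
Oasl1 (chr5:114923090-114923239, plus strand): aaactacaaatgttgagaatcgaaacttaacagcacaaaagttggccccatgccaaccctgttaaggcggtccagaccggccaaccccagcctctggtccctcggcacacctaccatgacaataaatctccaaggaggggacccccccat
Irf7 (chr7:141266425-141266574, minus strand): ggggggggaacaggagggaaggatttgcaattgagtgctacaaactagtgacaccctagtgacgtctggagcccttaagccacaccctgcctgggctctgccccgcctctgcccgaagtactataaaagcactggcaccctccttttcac
Ifit1 (chr19:34640739-34640888, plus strand): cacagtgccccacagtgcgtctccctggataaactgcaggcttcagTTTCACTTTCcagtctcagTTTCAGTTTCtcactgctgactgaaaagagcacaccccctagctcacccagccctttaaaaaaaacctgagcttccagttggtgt
Isg15 (chr4:156200819-156200968, minus strand): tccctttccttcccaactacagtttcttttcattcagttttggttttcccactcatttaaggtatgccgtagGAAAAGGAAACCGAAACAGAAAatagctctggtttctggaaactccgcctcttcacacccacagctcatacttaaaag
Rsad2 (chr12:26456453-26456602, minus strand): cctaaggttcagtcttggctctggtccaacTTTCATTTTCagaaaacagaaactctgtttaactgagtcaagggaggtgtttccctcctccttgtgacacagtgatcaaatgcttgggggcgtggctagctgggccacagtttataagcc

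The Ifit1 window holds 2 cores starting 104 and 85 bases before the start, and the same letters face Ifit1bl2, which is transcribed from the other strand of the same stretch. Isg15 has 3 overlapping cores that begin 78, 72 and 66 bases before its start. The core lies 75 bases before the start of Oas3, 120 before that of Rsad2 and 104 before that of Ifit1bl1 in the promoter shown. Another promoter entry of Ifit1bl1 has a core 23 bases before its start. The searched letters were not found in the windows of Oasl1 and Irf7, although both genes were among those with the largest change. Across aPD1 and isotype control tumors, the 16 members with an ISRE core had a median log2 fold change of 1.04 with 13 passing the edgeR test described below (beside 6.17% of all genes called higher), and the 14 members without one had a median of 0.59 with 11 passing. The 9 members with no matched promoter had a median of 1.22 with 8 passing.

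Total counts ran from 15109228 to 24101674 per tumor, apart from aPD1 + aGMCSF + aIL2RB replicate 4 with 7155486. The tumors also fall into a first and a second range of replicate numbers, a split that the labels do not name and that was taken over from earlier results of these data. The first range holds isotype control replicates 1 and 2, aPD1 replicates 1 to 3, aPD1 + aGMCSF replicates 1 to 5 and, in each group with aIL2RB, the tumors numbered 1 to 6. With treatment in the model, the second range had 2309 of 16932 genes higher and 1943 lower, and among the members 0 higher and 2 lower. Values within each range are given below for the counts of members called.

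The level of the whole list in a tumor was summarized as the mean over the 39 genes of log2 CPM (read counts scaled to library size after TMM normalization) standardized per gene over all tumors, so that 0 is the average tumor and 1 unit is 1 SD of a gene. The isotype control tumors scored -0.20, -0.23, -1.39, -0.88 and -1.27 in replicates 1 to 5. The aPD1 tumors scored 1.30, 0.22, 0.08, 1.963, 1.65 and 2.28 in replicates 1 to 6, and every aPD1 tumor lay above every isotype control tumor.

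Scores of aPD1 + aGMCSF tumors ran from -1.07 to 0.17 with a median of -0.32. Those of aPD1 + aIL2RB ran from -0.69 to 0.62 with a median of -0.42, and those of aPD1 + aGMCSF + aIL2RB from -0.58 to 1.94 with a median of 0.03. The group means (± SD) ordered as aPD1 (1.25 ± 0.91), aPD1 + aGMCSF + aIL2RB (0.12 ± 0.69), aPD1 + aIL2RB (-0.10 ± 0.52), aPD1 + aGMCSF (-0.41 ± 0.46) and isotype control (-0.79 ± 0.56). From the second to the last of these, neighboring means were closer to each other than 1 SD.

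**Figure D1:**
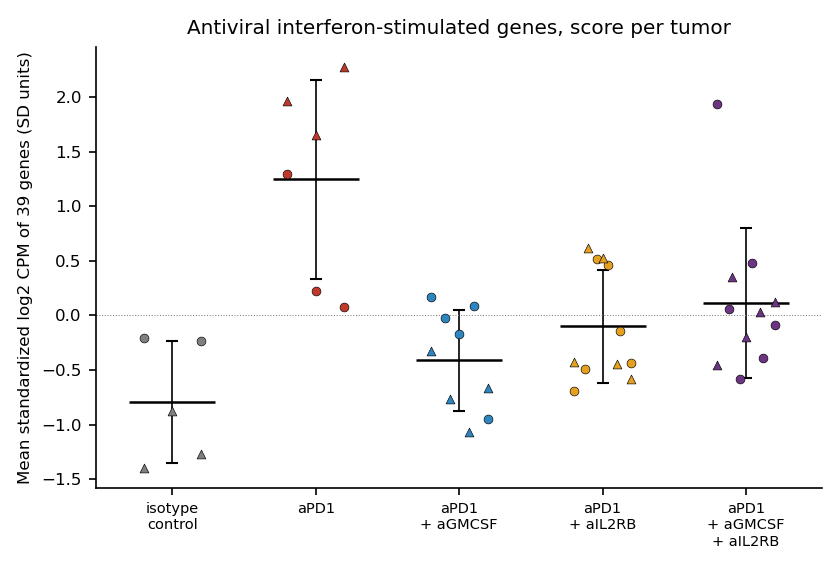
Score of the 39 genes (y axis, mean standardized log2 CPM in SD units) in each of the 42 tumors by group (x axis), with circles for the first and triangles for the second range of replicate numbers described in the text, and lines and bars for mean and SD. The 6 aPD1 tumors lie between 0.08 and 2.28, and the highest tumor outside that group is aPD1 + aGMCSF + aIL2RB replicate 1 at 1.94.

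Gene by gene, the level was highest in the aPD1 group for 38 of 39 members, and Ddx58 was the exception. The lowest mean was in isotype control tumors for 34 members, in aPD1 + aGMCSF for Bst2 and Xaf1, and in aPD1 + aGMCSF + aIL2RB for Irf9, Parp9 and Ifi35.

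**Figure D2:**
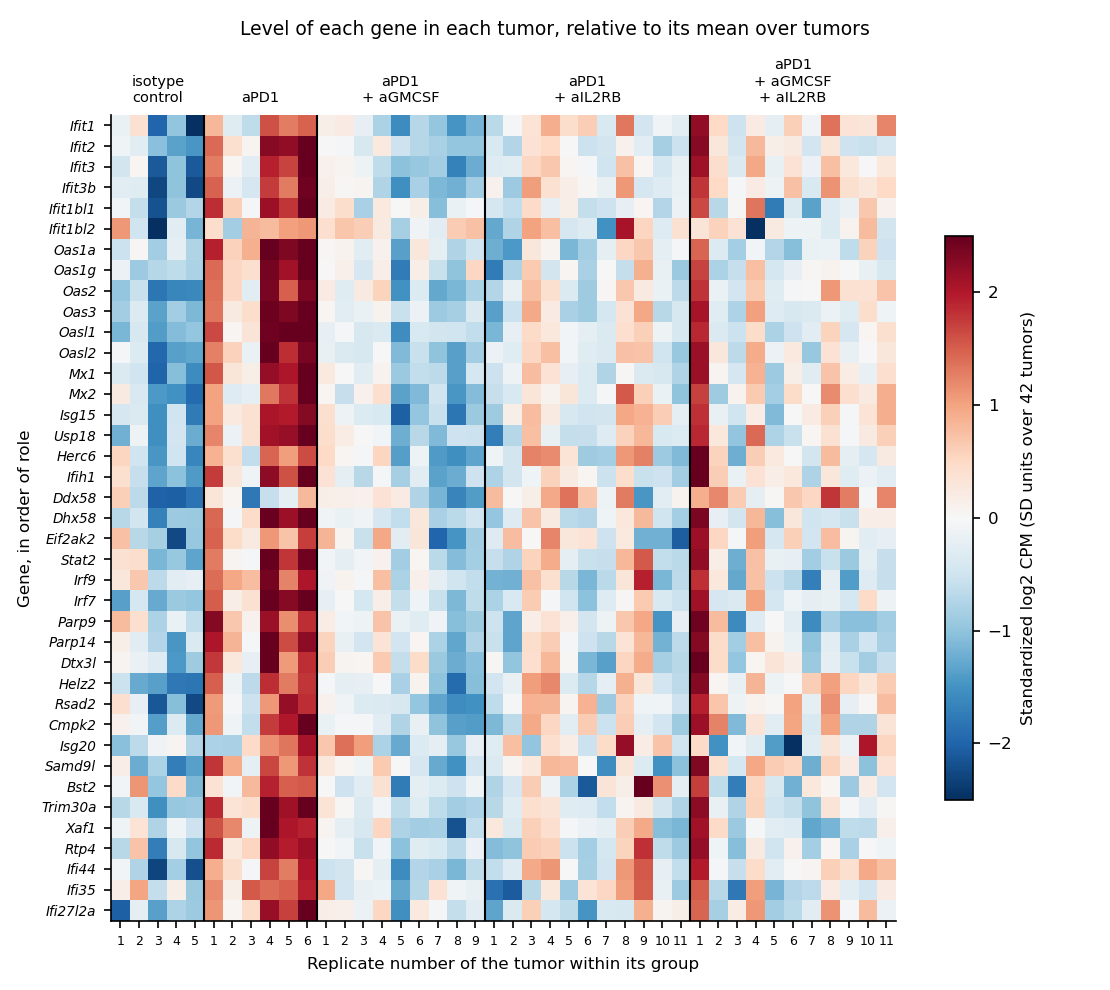
Standardized log2 CPM (color, SD units over the 42 tumors) of each of the 39 genes (rows, ordered by role) in each tumor (columns, ordered by group and replicate number). Red runs through nearly all rows in aPD1 replicates 1 and 4 to 6 and in aPD1 + aGMCSF + aIL2RB replicate 1.

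The comparison of aPD1 with isotype control asked how the antiviral genes stood 48 h after PD-1 blockade. Of the 39 members, 32 were higher with aPD1 in edgeR's quasi-likelihood test (Benjamini-Hochberg adjusted p under 0.05 over 16932 genes), where 6.17% of all genes were called higher, and none was lower. The median log2 fold change of the members was 0.93, beside -0.0023 for all genes tested, and all 39 estimates were positive. Every aPD1 tumor exceeded every isotype control tumor for 15 members, beside 3.38% of all genes. The members that did not pass were Ifit1bl2, Herc6, Ddx58, Parp9, Isg20, Bst2 and Ifi35. In bulk tumors, more cells of a type that carries these transcripts and more transcript per cell cannot be told apart.

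The difference was also taken within each range of replicate numbers. Within the first (3 aPD1 against 2 isotype control tumors) the median log2 fold change of the members was 0.35 and edgeR called 0 of 39, and within the second (3 against 3) it was 1.51 with 37 called. Of all 16932 genes, 2 were called in either direction within the first range and 2178 within the second, and 7 members had an unadjusted p under 0.05 in the first. Tested as an interaction, the difference passed for Ifit2, Ifit3 and Rsad2 (3 of 39, beside 0.0709% of all genes), and 34 members had an unadjusted p under 0.05. Rsad2 had a log2 fold change of 0.05 in the first range and 1.58 in the second (adjusted p of the difference 0.0434). The scores show both ends of it, with 2 isotype control tumors at -0.20 and -0.23 and 3 aPD1 tumors at 0.08 to 1.30 in the first range, and -1.39 to -0.88 against 1.65 to 2.28 in the second.

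All p-values below are from the same edgeR fit, adjusted over all genes tested. Expected counts that were not whole numbers, which arise when a read fits several transcripts and is divided, occurred in between 3 and 40 of the 42 tumors for 15 members (Ifit1, Ifit3, Ifit3b, Ifit1bl2, Oas1a, Oas1g, Mx1, Mx2, Herc6, Eif2ak2, Parp9, Dtx3l, Trim30a, Samd9l and Ifi35). The split between such near copies, and between the overlapping ends of Parp9 and Dtx3l, is uncertain.

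The IFIT proteins bind viral RNA ends and block translation. Of 6 members, 5 rose with aPD1. Ifit1bl1, an Ifit1-like gene, had the largest change of the whole list. Its levels in isotype control replicates 1 to 5 were 2.36, 1.55, 0.403, 1.18 and 1.40 CPM, and its levels with aPD1 ran from 2.41 to 22.5 CPM with a median of 10.2. The ranges just failed to meet, and the log2 fold change was 2.91 ± 0.52 (SE, adjusted p = 0.000723). It fell with every blocking antibody relative to aPD1, by 2.11 ± 0.41 on the log2 scale with aPD1 + aGMCSF (1.05 to 3.52 CPM, median 2.47, adjusted p = 0.000543), by 2.29 ± 0.38 with aPD1 + aIL2RB (1.39 to 3.64 CPM, median 2.12, adjusted p = 1.31e-05) and by 1.76 ± 0.38 with aPD1 + aGMCSF + aIL2RB (0.587 to 9.01 CPM, median 2.18, adjusted p = 0.000472).

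Ifit1, the best known member of the family, stood at the other end of it. Its isotype control levels were 40.9, 47.4, 24.9, 32.8 and 21.3 CPM, and with aPD1 it ran from 35.98 to 65.8 CPM with a median of 57.2. Those groups overlapped, and the log2 fold change was 0.67 ± 0.18 (adjusted p = 0.0179). The call was lost in 4 of 20 alternative settings and reversed in sign, with no call, in 1 more, the first range alone (-0.04, adjusted p = 0.976). With aPD1 + aGMCSF it fell to 27.8 to 45.2 CPM (median 34.4, log2 fold change against aPD1 -0.58 ± 0.16, adjusted p = 0.0101). Levels of Ifit1 with aPD1 + aIL2RB (35.7 to 61.2 CPM, median 42.2) and with aPD1 + aGMCSF + aIL2RB (37.04 to 78.2 CPM, median 47.0) did not pass against aPD1, with log2 fold changes of -0.24 ± 0.15 (adjusted p = 0.262) and -0.07 ± 0.15 (adjusted p = 0.768).

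Ifit3b, a near copy of Ifit3, measured 9.68, 9.49, 3.83, 6.92 and 3.88 CPM in isotype control tumors and 9.04 to 33.3 CPM with aPD1 (median 20.7), a log2 fold change of 1.54 ± 0.29 (adjusted p = 0.00114). It fell against aPD1 by 1.24 ± 0.24 with aPD1 + aGMCSF (5.42 to 11.7 CPM, median 7.52, adjusted p = 0.000536) and by 0.75 ± 0.23 with aPD1 + aIL2RB (7.24 to 17.9 CPM, median 11.1, adjusted p = 0.0101), and missed the threshold with aPD1 + aGMCSF + aIL2RB (9.23 to 24.7 CPM, median 13.1, -0.50 ± 0.23, adjusted p = 0.1). Ifit2 and Ifit3 rose with aPD1 by 1.15 ± 0.19 and 1.37 ± 0.25 and fell with each blockade. For Ifit3 the fall with aPD1 + aGMCSF + aIL2RB (-0.52 ± 0.20, adjusted p = 0.0452) was lost in 9 of 17 alternative settings and reversed in 1 more, the first range alone. Ifit1bl2 carried between 0 and 33.8 reads per tumor, and none of its differences passed.

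The OAS enzymes make the second messenger that switches on RNase L in cells holding double-stranded RNA, and OASL1 is a relative that lacks this activity. All 6 members rose with aPD1, 5 of them without overlap between the groups, and all 6 fell with each blocking antibody. Oas3 measured 15.5, 20.4, 12.2, 15.5 and 13.6 CPM in isotype control tumors and 27.2 to 98.0 CPM with aPD1 (median 63.8). Its lowest aPD1 tumors, replicates 2 and 3, still exceeded the highest isotype control tumor, and the log2 fold change was 1.99 ± 0.33 (adjusted p = 0.000356).

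With aPD1 + aGMCSF, Oas3 ran from 15.2 to 25.5 CPM (median 21.3), below every aPD1 tumor (-1.57 ± 0.27, adjusted p = 0.000219). With aPD1 + aIL2RB the range was 12.1 to 39.7 CPM (median 19.3, -1.42 ± 0.26, adjusted p = 4.02e-05), and with aPD1 + aGMCSF + aIL2RB 16.4 to 69.6 CPM (median 20.8, -1.16 ± 0.26, adjusted p = 0.000635). In these groups some tumors reached the lower aPD1 values. The top value of the last belonged to replicate 1 and lay above the aPD1 median of 63.8 CPM.

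Oasl1, an RNA-binding relative that restrains IRF7 translation, measured 9.39, 13.5, 8.37, 9.66 and 10.2 CPM in isotype control tumors and 16.7 to 60.7 CPM with aPD1 (median 43.4, log2 fold change 1.97 ± 0.28, adjusted p = 0.000139). Against aPD1 it fell by 1.62 ± 0.23 with aPD1 + aGMCSF (7.77 to 15.8 CPM, median 13.5, adjusted p = 3.75e-05), by 1.31 ± 0.22 with aPD1 + aIL2RB (9.40 to 21.6 CPM, median 15.3, adjusted p = 1.15e-05) and by 1.18 ± 0.22 with aPD1 + aGMCSF + aIL2RB (11.2 to 39.6 CPM, median 14.3, adjusted p = 7.19e-05). The aPD1 + aGMCSF tumors did not overlap the aPD1 tumors. Oasl2 had the smallest change of the family, from 114, 106, 68.9, 81.1 and 82.2 CPM in isotype control tumors to 110.5 to 223 CPM with aPD1 (median 174, log2 fold change 0.93 ± 0.16, adjusted p = 0.000564). It fell by 0.81 ± 0.14, 0.56 ± 0.13 and 0.46 ± 0.13 in the aPD1 + aGMCSF, aPD1 + aIL2RB and aPD1 + aGMCSF + aIL2RB groups (adjusted p = 0.000187, 0.00115 and 0.00669).

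For the OAS1 copies the falls under the 3 blockades were within 1 SE of each other. Oas1a, at 24.2, 29.1, 21.6, 26.7 and 22.4 CPM in isotype control tumors and 34.9 to 71.1 CPM with aPD1 (median 58.4), rose by 1.14 ± 0.19 (adjusted p = 0.000356) and fell against aPD1 by 1.04 ± 0.16, 1.05 ± 0.15 and 1.00 ± 0.15. Oas1g rose by 1.32 ± 0.24 (adjusted p = 0.000828) and fell by 1.10 ± 0.20, 1.12 ± 0.19 and 0.94 ± 0.19, in the same order of groups. For Oas2 the falls were unequal in size, at 1.03 ± 0.19 with aPD1 + aGMCSF, 0.84 ± 0.18 with aPD1 + aIL2RB and 0.57 ± 0.18 with aPD1 + aGMCSF + aIL2RB, after a rise of 1.52 ± 0.23 with aPD1 (adjusted p = 0.00018). The difference between these falls was tested as the difference between the blocked groups, and for Oas2 the largest of them was 0.46 ± 0.17 (aPD1 + aGMCSF + aIL2RB against aPD1 + aGMCSF, adjusted p = 0.136).

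The Mx proteins are dynamin-like GTPases that trap viral nucleoproteins, and many laboratory mouse strains carry a defective Mx1. The alleles in these mice were not examined. Mx1 measured 17.5, 16.5, 8.27, 12.7 and 10.0 CPM in isotype control tumors and 22.1 to 74.2 CPM with aPD1 (median 47.1), without overlap (log2 fold change 1.79 ± 0.28, adjusted p = 0.000263). It fell against aPD1 by 1.38 ± 0.23 with aPD1 + aGMCSF (11.2 to 23.1 CPM, median 16.9, adjusted p = 0.000171), by 1.24 ± 0.22 with aPD1 + aIL2RB (14.7 to 29.4 CPM, median 17.6, adjusted p = 2.97e-05) and by 0.86 ± 0.22 with aPD1 + aGMCSF + aIL2RB (13.6 to 55.3 CPM, median 22.1, adjusted p = 0.00242).

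Mx2 stood at 7.51, 5.98, 4.03, 3.92 and 3.32 CPM in isotype control tumors and 6.12 to 19.1 CPM with aPD1 (median 10.7), and rose by 1.16 ± 0.26 (adjusted p = 0.00525) with overlap at the low end. It fell by 0.96 ± 0.22 with aPD1 + aGMCSF (4.00 to 8.13 CPM, median 5.59, adjusted p = 0.0028) and by 0.62 ± 0.21 with aPD1 + aIL2RB (4.74 to 12.3 CPM, median 6.78, adjusted p = 0.0234). The fall with aPD1 + aGMCSF + aIL2RB (4.95 to 13.1 CPM, median 8.10) was not called (-0.44 ± 0.21, adjusted p = 0.125).

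Isg15 encodes a ubiquitin-like modifier, Herc6 the ligase that attaches it in mice, and Usp18 the protease that removes it and restrains the interferon receptor. Usp18 measured 8.69, 12.8, 7.66, 11.3 and 8.55 CPM in isotype control tumors and 12.8 to 33.9 CPM with aPD1 (median 24.97), a log2 fold change of 1.27 ± 0.24 (adjusted p = 0.00143). It fell against aPD1 by 0.99 ± 0.20 with aPD1 + aGMCSF (8.63 to 15.8 CPM, median 11.1, adjusted p = 0.00102), by 0.90 ± 0.19 with aPD1 + aIL2RB (7.16 to 18.2 CPM, median 11.9, adjusted p = 0.000413) and by 0.63 ± 0.19 with aPD1 + aGMCSF + aIL2RB (9.41 to 26.8 CPM, median 14.6, adjusted p = 0.0115). Isg15 followed the same pattern, at 16.3, 16.7, 11.2, 15.9 and 10.3 CPM in isotype control tumors, 20.5 to 41.2 CPM with aPD1 (median 31.8, 1.13 ± 0.21, adjusted p = 0.00131) and falls of 1.03 ± 0.18, 0.63 ± 0.17 and 0.56 ± 0.17.

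Herc6 did not pass in any of these comparisons. It measured 86.5, 73.5, 63.1, 73.5 and 61.4 CPM in isotype control tumors and 72.0 to 103 CPM with aPD1 (median 92.5, 0.34 ± 0.12, adjusted p = 0.0728). Its differences from aPD1 were -0.30 ± 0.11 with aPD1 + aGMCSF (62.4 to 86.6 CPM, median 77.8, adjusted p = 0.0533), -0.16 ± 0.10 with aPD1 + aIL2RB (66.7 to 96.9 CPM, median 78.2, adjusted p = 0.261) and -0.12 ± 0.10 with aPD1 + aGMCSF + aIL2RB (65.5 to 119 CPM, median 82.4, adjusted p = 0.419).

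Ddx58 (RIG-I), Ifih1 (MDA5) and Dhx58 (LGP2) encode the cytosolic sensors of viral RNA, and Eif2ak2 (PKR) a kinase that halts translation when it binds double-stranded RNA. Dhx58 had the largest change of the group, from 16.4, 17.7, 11.8, 15.3 and 15.2 CPM in isotype control tumors to 20.3 to 50.8 CPM with aPD1 (median 36.9, 1.22 ± 0.21, adjusted p = 0.000488), without overlap. It fell by 0.96 ± 0.18 with aPD1 + aGMCSF (15.8 to 22.4 CPM, median 17.9, adjusted p = 0.000363), by 0.87 ± 0.17 with aPD1 + aIL2RB (14.95 to 26.7 CPM, median 18.5, adjusted p = 0.000108) and by 0.72 ± 0.17 with aPD1 + aGMCSF + aIL2RB (14.5 to 43.9 CPM, median 19.2, adjusted p = 0.0012).

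Ddx58 was the member that departed from the list. Its isotype control levels were 140, 118, 98.0, 97.7 and 100 CPM, and its aPD1 levels ran from 101 to 144 CPM (median 127), a difference of 0.18 ± 0.09 that did not pass (adjusted p = 0.232). Against aPD1 it was -0.04 ± 0.08 with aPD1 + aGMCSF (103 to 135 CPM, median 131, adjusted p = 0.798), 0.11 ± 0.08 with aPD1 + aIL2RB (106 to 155 CPM, median 131, adjusted p = 0.344) and 0.19 ± 0.08 with aPD1 + aGMCSF + aIL2RB (125 to 164 CPM, median 141, adjusted p = 0.0756). Against isotype control it rose with aPD1 + aIL2RB by 0.29 ± 0.08 (adjusted p = 0.0481, lost in 8 of 14 alternative settings) and with aPD1 + aGMCSF + aIL2RB by 0.37 ± 0.09 (adjusted p = 0.00623). Ifih1 rose with aPD1 by 0.67 ± 0.13 and fell with each blockade, whereas Eif2ak2 lay close to the threshold. It rose with aPD1 by 0.29 ± 0.09 (adjusted p = 0.0346), a call lost in 10 of 20 alternative settings, and fell with aPD1 + aIL2RB by 0.20 ± 0.08 (adjusted p = 0.0476), a call lost in 8 of 15. Its difference with aPD1 + aGMCSF was of the same size (-0.21 ± 0.08, adjusted p = 0.0615).

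**Figure D3:**
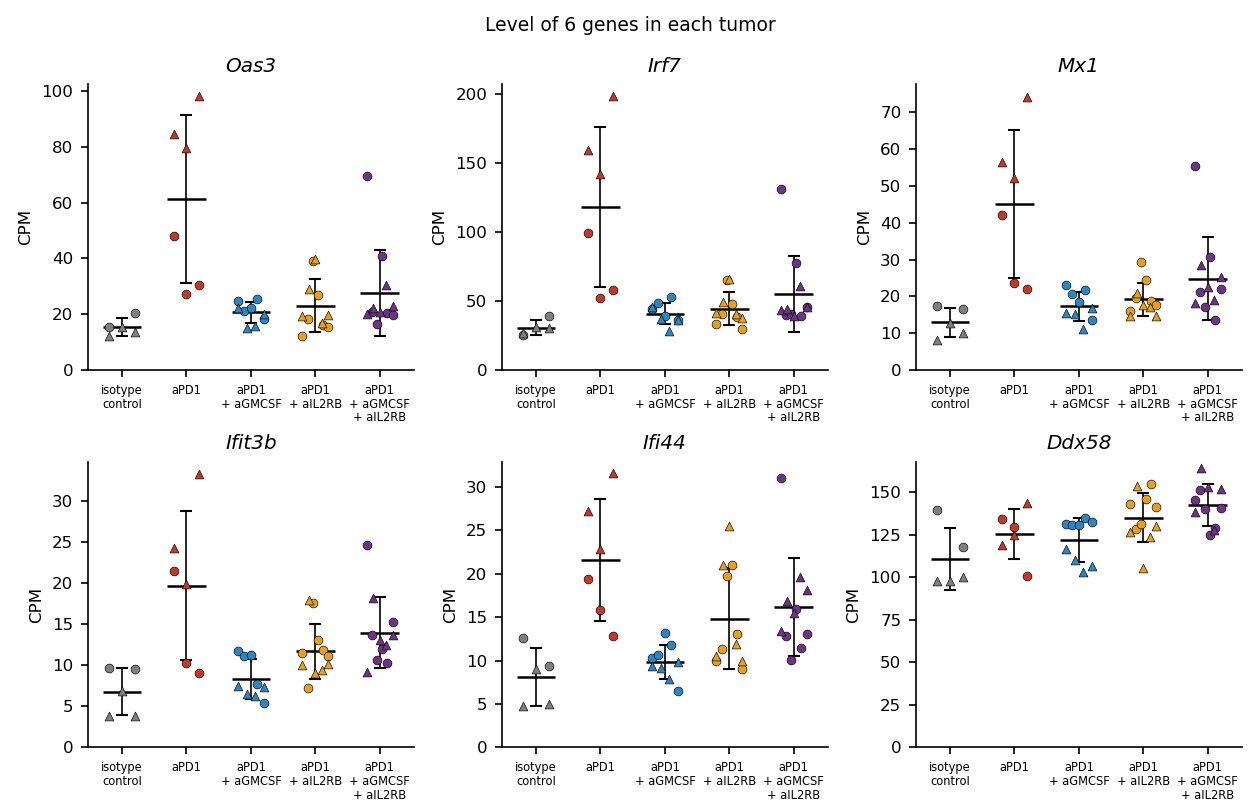
CPM (y axes, from 0) of Oas3, Irf7, Mx1, Ifit3b, Ifi44 and Ddx58 in each tumor by group, with circles and triangles for the first and second range of replicate numbers and lines and bars for mean and SD. Oas3, Irf7 and Mx1 are separated between aPD1 and isotype control, whereas Ddx58 is highest in the aPD1 + aGMCSF + aIL2RB group, at 125 to 164 CPM.

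Stat2 and Irf9 encode subunits of ISGF3, and Irf7 the factor that amplifies interferon production. Irf7 measured 25.6, 39.3, 26.7, 31.3 and 30.7 CPM in isotype control tumors and 52.4 to 198 CPM with aPD1 (median 121). The groups did not overlap, and the log2 fold change was 1.94 ± 0.29 (adjusted p = 0.000156). It fell against aPD1 by 1.53 ± 0.24 with aPD1 + aGMCSF (28.5 to 52.6 CPM, median 39.4, adjusted p = 8.3e-05), by 1.41 ± 0.22 with aPD1 + aIL2RB (29.8 to 65.8 CPM, median 40.4, adjusted p = 5.92e-06) and by 1.10 ± 0.22 with aPD1 + aGMCSF + aIL2RB (39.2 to 131 CPM, median 44.4, adjusted p = 0.000226). The top value of each blocked group reached the lowest aPD1 tumor at 52.4 CPM.

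Irf9 changed less, from 38.6, 41.9, 31.8, 34.3 and 34.9 CPM in isotype control tumors to 42.7 to 59.8 CPM with aPD1 (median 47.7, 0.45 ± 0.15, adjusted p = 0.0454), yet the groups did not overlap. This call was lost in 11 of 20 alternative settings. Its falls against aPD1 were 0.48 ± 0.13 with aPD1 + aGMCSF (30.9 to 42.5 CPM, median 35.7, adjusted p = 0.00797), 0.51 ± 0.12 with aPD1 + aIL2RB (28.3 to 54.4 CPM, median 31.6, adjusted p = 0.00124) and 0.53 ± 0.12 with aPD1 + aGMCSF + aIL2RB (25.5 to 53.2 CPM, median 32.5, adjusted p = 0.000915). Stat2 rose by 0.79 ± 0.20 and fell by 0.77 ± 0.17, 0.58 ± 0.17 and 0.62 ± 0.17 in the same order.

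Parp9 and its partner Dtx3l form a pair that modifies histones and host proteins during the interferon response, Parp14 is a mono-ADP-ribosyltransferase, and Helz2 is an interferon-induced helicase. Parp14 measured 206, 187, 167, 141 and 183 CPM in isotype control tumors and 198 to 367 CPM with aPD1 (median 309, 0.74 ± 0.16, adjusted p = 0.00424). It fell by 0.67 ± 0.14 with aPD1 + aGMCSF (146 to 228 CPM, median 178, adjusted p = 0.00113), by 0.63 ± 0.13 with aPD1 + aIL2RB (146 to 244 CPM, median 176, adjusted p = 0.000305) and by 0.55 ± 0.13 with aPD1 + aGMCSF + aIL2RB (157 to 345 CPM, median 187, adjusted p = 0.00146).

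Parp9 was not called with aPD1 (145, 137, 117, 127 and 119 CPM in isotype control tumors, 132 to 178 CPM with aPD1, median 160, 0.29 ± 0.10, adjusted p = 0.0609). Against aPD1 it nonetheless fell by 0.32 ± 0.09, 0.30 ± 0.08 and 0.34 ± 0.08 with aPD1 + aGMCSF, aPD1 + aIL2RB and aPD1 + aGMCSF + aIL2RB (adjusted p = 0.0113, 0.00472 and 0.00183). Dtx3l rose by 0.45 ± 0.13, a call lost in 4 of 20 alternative settings, and fell in all 3 groups, where the call with aPD1 + aGMCSF + aIL2RB was lost in 7 of 17. Helz2 rose by 0.59 ± 0.11 with aPD1 and fell by 0.39 ± 0.09 with aPD1 + aGMCSF and by 0.24 ± 0.09 with aPD1 + aIL2RB (adjusted p = 0.0442, lost in 8 of 15 alternative settings). Its difference with aPD1 + aGMCSF + aIL2RB, -0.11 ± 0.09, did not pass (adjusted p = 0.404).

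Rsad2 (viperin) makes a chain-terminating nucleotide from the CTP that its neighbor Cmpk2 helps to supply, Isg20 is an exonuclease, and Samd9l restrains poxviruses and cell growth. Rsad2 measured 92.3, 76.0, 42.1, 58.3 and 40.3 CPM in isotype control tumors and 68.7 to 160 CPM with aPD1 (median 113), with overlap and a log2 fold change of 0.87 ± 0.21 (adjusted p = 0.00672). It fell with aPD1 + aGMCSF by 0.77 ± 0.17 (50.1 to 84.0 CPM, median 71.7, adjusted p = 0.00231). With aPD1 + aIL2RB (61.3 to 106 CPM, median 79.7, -0.42 ± 0.17, adjusted p = 0.0569) and aPD1 + aGMCSF + aIL2RB (75.1 to 148 CPM, median 83.2, -0.24 ± 0.17, adjusted p = 0.315) it did not pass against aPD1.

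Isg20 was not called in any of these comparisons, at 9.39, 10.0, 11.0, 11.3 and 9.90 CPM in isotype control tumors and 9.78 to 15.9 CPM with aPD1 (median 12.9, 0.28 ± 0.15, adjusted p = 0.231). Its differences from aPD1 were -0.17 ± 0.13, -0.09 ± 0.12 and -0.20 ± 0.12 (adjusted p = 0.422, 0.629 and 0.232). Cmpk2 rose by 0.67 ± 0.18 and Samd9l by 0.55 ± 0.12 with aPD1, and both fell with aPD1 + aGMCSF and with aPD1 + aIL2RB but not beyond the threshold with aPD1 + aGMCSF + aIL2RB (adjusted p = 0.0899 and 0.109).

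The last 7 members include Bst2 (tetherin), which holds budding virus at the cell surface, Trim30a, which restrains NF-κB signaling, Rtp4, a restriction factor of flaviviruses, Xaf1, a pro-apoptotic protein, and the interferon-induced Ifi44, Ifi35 and Ifi27l2a. Of these, 5 rose with aPD1 and all 7 fell with aPD1 + aGMCSF. Ifi27l2a measured 3.21, 6.98, 4.33, 5.53 and 5.23 CPM in isotype control tumors and 7.86 to 25.1 CPM with aPD1 (median 14.04), without overlap (1.56 ± 0.28, adjusted p = 0.000727). It fell by 1.03 ± 0.23 with aPD1 + aGMCSF (4.01 to 9.59 CPM, median 7.57, adjusted p = 0.00231), by 1.09 ± 0.22 with aPD1 + aIL2RB (4.10 to 11.2 CPM, median 6.56, adjusted p = 0.000181) and by 0.79 ± 0.22 with aPD1 + aGMCSF + aIL2RB (5.33 to 14.3 CPM, median 7.61, adjusted p = 0.0057).

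Ifi44 measured 12.7, 9.36, 4.74, 8.99 and 4.95 CPM in isotype control tumors and 12.8 to 31.6 CPM with aPD1 (median 21.1, 1.41 ± 0.28, adjusted p = 0.00202). It fell with aPD1 + aGMCSF by 1.13 ± 0.24 (6.53 to 13.2 CPM, median 9.83, adjusted p = 0.00117) but did not pass with aPD1 + aIL2RB (9.02 to 25.5 CPM, median 11.9, -0.55 ± 0.22, adjusted p = 0.0618) or aPD1 + aGMCSF + aIL2RB (10.1 to 31.02 CPM, median 15.5, -0.42 ± 0.22, adjusted p = 0.168).

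Ifi35 was at 29.8, 32.95, 27.2, 29.8 and 26.1 CPM in isotype control tumors and 29.8 to 37.1 CPM with aPD1 (median 34.9, 0.23 ± 0.09, adjusted p = 0.115). It fell by 0.26 ± 0.08, 0.27 ± 0.08 and 0.27 ± 0.08 with aPD1 + aGMCSF, aPD1 + aIL2RB and aPD1 + aGMCSF + aIL2RB (adjusted p = 0.026, 0.00887 and 0.00779), the first of these calls being lost in 5 of 15 alternative settings. Trim30a, Rtp4 and Xaf1 rose with aPD1 by 1.14 ± 0.17, 0.84 ± 0.19 and 0.58 ± 0.15 and fell in all 3 blocked groups. Bst2 was not called with aPD1 (0.29 ± 0.14, adjusted p = 0.209) and fell with aPD1 + aGMCSF and aPD1 + aGMCSF + aIL2RB (adjusted p = 0.0426 and 0.0401), calls lost in 5 of 15 and 6 of 17 alternative settings.

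**Figure D4:**
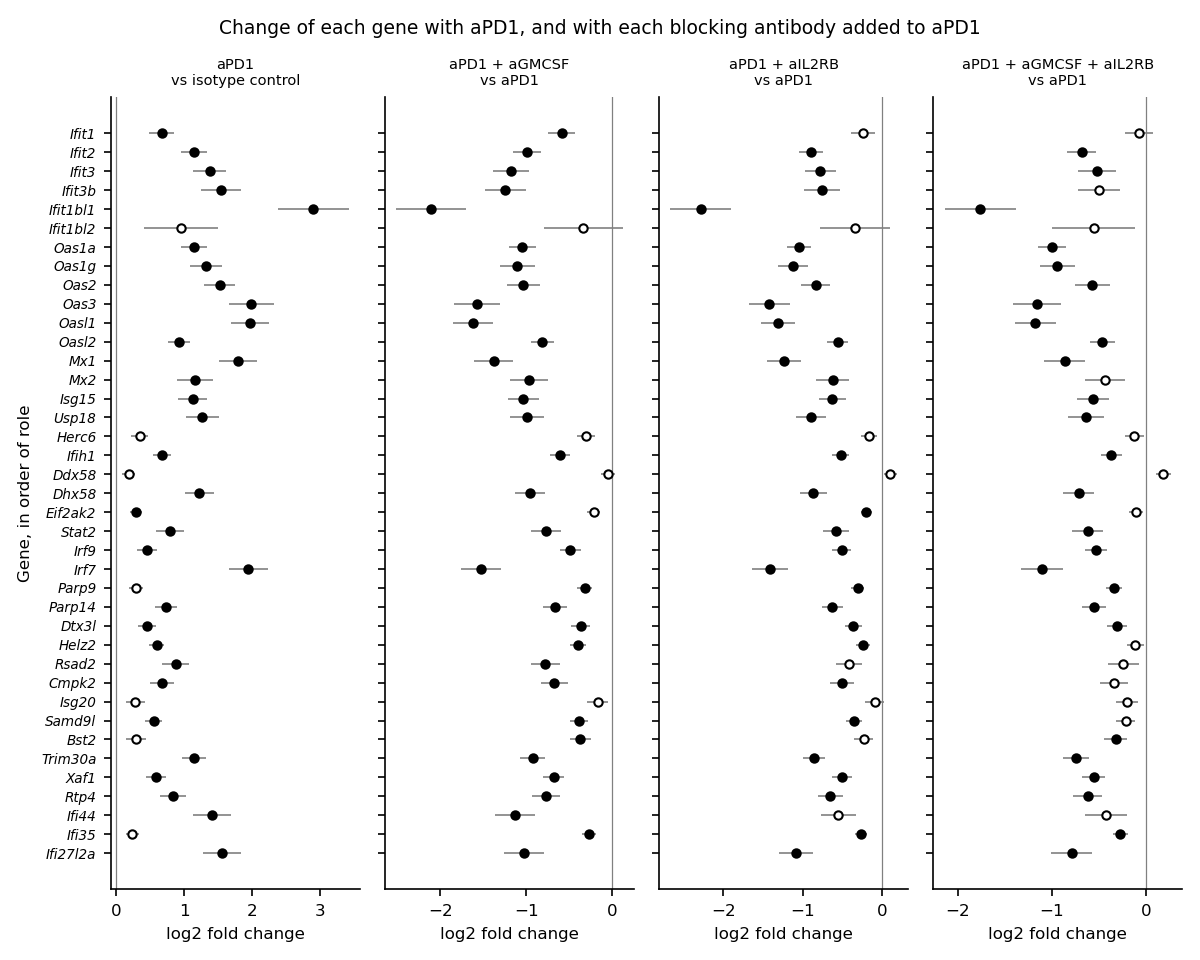
Log2 fold change (x axes, point with SE bar) of each of the 39 genes (y axis, ordered by role) for aPD1 against isotype control and for each blocked group against aPD1, with filled points for an adjusted p under 0.05. The first panel lies wholly to the right of 0 with 32 filled points, and the other panels hold 34, 31 and 26 filled points, all to the left of 0.

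Counted over the list, the addition of aGMCSF to aPD1 lowered 34 of 39 members (8.75% of all genes were called lower) and raised none. The median log2 fold change was -0.77 for the members and 0.0066 for all genes. Every aPD1 + aGMCSF tumor lay below every aPD1 tumor for Oas1a, Oas3, Oasl1, Irf9, Trim30a and Rtp4, 6 of 39 members, beside 2.20% of all genes. The 5 members not called were Ifit1bl2, Herc6, Ddx58, Eif2ak2 and Isg20.

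The addition of aIL2RB lowered 31 members, beside 14.5% of all genes called lower, with a median of -0.58, and the addition of both antibodies lowered 26, beside 14.3%, with a median of -0.53. No member was separated without overlap from aPD1 in either group. These comparisons share the 6 aPD1 tumors with each other and with the comparison of aPD1 with isotype control, so a low or high aPD1 tumor moves all of them at once.

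For aPD1 + aGMCSF against aPD1 the members' median was -0.34 within the first range (0 called) and -1.22 within the second (37 called), for aPD1 + aIL2RB -0.26 (2 called) and -0.85 (34 called), and for aPD1 + aGMCSF + aIL2RB -0.12 (0 called) and -0.88 (34 called). Of all 16932 genes, the same fits called, in either direction, 31 and 2727 for aPD1 + aGMCSF, 2751 and 3681 for aPD1 + aIL2RB and 938 and 4954 for aPD1 + aGMCSF + aIL2RB, and in the first range 7, 12 and 2 members had an unadjusted p under 0.05. The difference passed for 0, 0 and 17 members in that order, and 9.18% of all genes passed in the last. At an unadjusted p under 0.05 the members were 33, 23 and 31. Replicate 1 of aPD1 + aGMCSF + aIL2RB, with the highest score outside the aPD1 group, belongs to the first range, and without it 30 members passed against aPD1.

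The blocked groups were next compared with isotype control. In the aPD1 + aGMCSF tumors 0 of 39 members passed in edgeR, as for all genes (0%), with a median log2 fold change of 0.14. There, 2 members had an unadjusted p under 0.05 and DESeq2 called 0. In the aPD1 + aIL2RB tumors Ddx58 and Helz2 were higher (2 of 39, beside 1.70% of all genes, median 0.29), and 14 members had an unadjusted p under 0.05. Without isotype control replicate 1, 5 members passed there, and without replicate 2, 3, 4 or 5 of that group none did.

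In the aPD1 + aGMCSF + aIL2RB tumors 15 of 39 members were higher than in isotype control tumors, beside 5.69% of all genes, with a median of 0.40. They were Ifit1, Ifit3, Ifit3b, Oas2, Oasl1, Oasl2, Mx1, Mx2, Ddx58, Irf7, Helz2, Rsad2, Samd9l, Ifi44 and Ifi27l2a. Ifit3b changed most among them, from a mean of 6.76 ± 2.87 to 13.9 ± 4.34 CPM (SD; 1.04 ± 0.26, adjusted p = 0.011). For Oas2 (12.9 ± 2.77 against 24.9 ± 7.10 CPM) and Helz2 (92.0 ± 8.54 against 129 ± 17.3 CPM) every aPD1 + aGMCSF + aIL2RB tumor lay above every isotype control tumor, beside 0.821% of all genes. Without aPD1 + aGMCSF + aIL2RB replicate 1, 9 members passed, and without isotype control replicate 3, 4 or 5 the counts were 6, 5 and 7. Within the first and second range of replicate numbers, 0 and 14 members passed for aPD1 + aIL2RB against isotype control (of 426 and 273 genes called in either direction) and 0 and 19 for aPD1 + aGMCSF + aIL2RB (of 332 and 1911). The calls of Oasl1, Mx2, Samd9l and Ifi27l2a for aPD1 + aGMCSF + aIL2RB were each lost in 11 of 16 alternative settings, and those of Oasl2 and Irf7 in 8 and 7.

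Among the blocked groups, 4 members (Ifit1, Ifit3, Ifit3b and Rsad2) were higher with aPD1 + aGMCSF + aIL2RB than with aPD1 + aGMCSF, beside 0.980% of all genes, with a median of 0.24. Ifit3b measured 13.9 ± 4.34 against 8.33 ± 2.39 CPM there (0.75 ± 0.21, adjusted p = 0.0483). Without replicate 1 of aPD1 + aGMCSF + aIL2RB only 1 member passed, and within the ranges 0 and 12 did (of 40 and 1281 genes called). The aPD1 + aIL2RB and aPD1 + aGMCSF groups differed in 0 members in edgeR (0.626% of all genes higher, median 0.12, 8 members with an unadjusted p under 0.05, 0 in DESeq2). Adding aGMCSF to aPD1 + aIL2RB changed 0 members in edgeR (0.00591% of all genes higher, median 0.13, 0 members with an unadjusted p under 0.05, 0 in DESeq2).

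Other genes of the pathway were followed from fixed lists. The only interferon gene that passed the filter was Ifng, at 1.51 ± 0.94 CPM in isotype control, 4.36 ± 1.06 in aPD1, 1.53 ± 0.60 in aPD1 + aGMCSF, 0.90 ± 0.97 in aPD1 + aIL2RB and 0.70 ± 0.91 in aPD1 + aGMCSF + aIL2RB tumors. It did not pass with aPD1 against isotype control (1.53 ± 0.64, adjusted p = 0.129), although every aPD1 tumor (3.23 to 6.08 CPM) lay above every isotype control tumor (0.403 to 2.74 CPM) and every aPD1 + aGMCSF tumor (0.740 to 2.64 CPM). It fell against aPD1 with aPD1 + aIL2RB (adjusted p = 0.000683) and aPD1 + aGMCSF + aIL2RB (adjusted p = 0.000175). Ifnb1, the gene of interferon beta, had 86 reads in all 42 tumors together, with 8 at most in a tumor, so its level could not be compared between groups at this depth.

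Of 5 interferon receptor genes tested, 3 rose with aPD1 (Ifnar2, Ifngr2 and Il10rb), and of 11 kinases and factors 5 did (beside 6.17% of all genes), among them Irf8 (0.84 ± 0.21, adjusted p = 0.0109). The nucleic acid sensing list had 6 of 13 higher, including the DNA sensor Ifi204 (1.49 ± 0.26, adjusted p = 0.000488), and the list of negative regulators 4 of 9. In the aPD1 + aGMCSF group 29 of the 61 tested genes of all these lists and the interferon gamma list below were lower than with aPD1, and in the aPD1 + aIL2RB and aPD1 + aGMCSF + aIL2RB groups 44 and 45 were (beside 8.75%, 14.5% and 14.3% of all genes in that order). Tlr3, a sensor of double-stranded RNA, went the other way, and was higher than with aPD1 under aPD1 + aIL2RB (0.21 ± 0.08, adjusted p = 0.0472) and aPD1 + aGMCSF + aIL2RB (0.25 ± 0.08, adjusted p = 0.0176).

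The 22 genes listed as inducible by interferon gamma, such as Cxcl9, Ido1, the GBP genes and the MHC class II genes, were set beside the antiviral members, each relative to isotype control. With aPD1, 3 of 22 passed (beside 6.17% of all genes) and their median was 0.77, beside 0.93 for the members. With aPD1 + aGMCSF the members' median was 0.14. There, mean CPM of the interferon gamma list lay below isotype control for all genes but Gbp5, Gbp6, Ciita and Nos2. Cxcl9, for example, was at 187 CPM against 219 CPM. Summed over the 22 genes, the level was 2187 to 4174 CPM (median 3005), beside 2738 to 4442 CPM (median 3221) in isotype control tumors. The sign of a mean CPM difference and a median log2 fold change are unlike measures. In the aPD1 + aIL2RB group the median of the 22 genes was -0.23 with 18 of 22 estimates below 0, beside 0.29 for the members with 3 of 39 below 0. In the aPD1 + aGMCSF + aIL2RB group it was -0.42 with 21 of 22 below 0, beside 0.40 for the members with 4 of 39 below 0.

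Calls among the 22 were few in these comparisons, with 2 lower with aPD1 + aIL2RB (1.51% of all genes) and 3 lower with aPD1 + aGMCSF + aIL2RB (4.51% of all genes). Ido1, an enzyme that breaks down tryptophan, was at 6.61 CPM on average in isotype control, 1.48 in aPD1 + aIL2RB and 1.59 in aPD1 + aGMCSF + aIL2RB tumors (-2.16 ± 0.57 and -2.06 ± 0.58, adjusted p = 0.0276 and 0.0196). Against aPD1, 21 and 22 of these 22 genes were lower in those groups, and 8 were with aPD1 + aGMCSF, beside 14.5%, 14.3% and 8.75% of all genes. The difference between the lists was not tested.

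**Figure D5:**
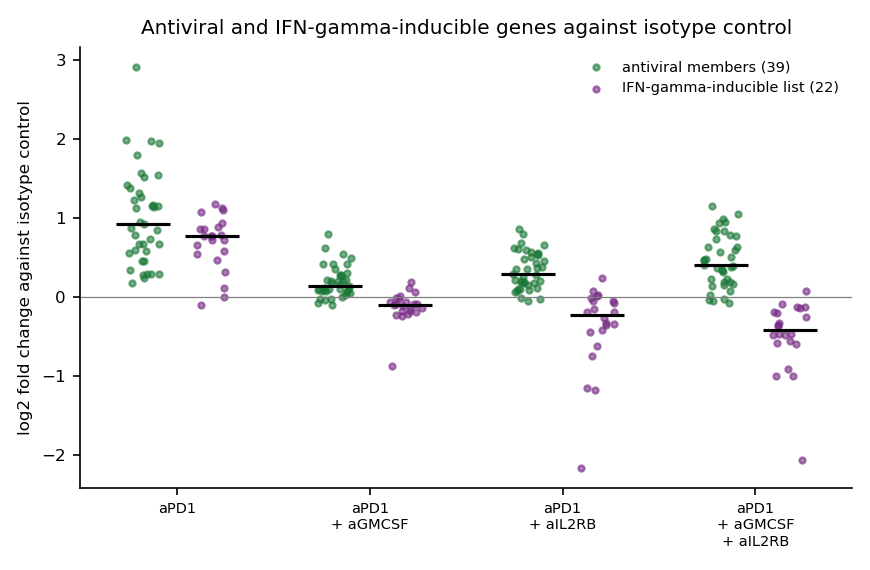
Log2 fold change against isotype control (y axis) of the 39 antiviral members and the 22 genes of the interferon gamma list in each treated group (x axis), 1 point a gene and a line at the median. Both medians are above 0 with aPD1 (0.93 and 0.77). They lie on opposite sides of 0 in the aPD1 + aIL2RB (0.29 and -0.23) and aPD1 + aGMCSF + aIL2RB (0.40 and -0.42) groups. With aPD1 + aGMCSF the members' median is 0.14. Mean CPM of the other list, which is not the measure plotted, is below isotype control except for Gbp5, Gbp6, Ciita and Nos2.

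Markers of host cells moved with some of these differences. The 7 macrophage and monocyte markers summed to 1621 to 1904 CPM in isotype control tumors and 1895 to 3705 CPM with aPD1, with 6 of 7 called higher, and to 1395 to 1688, 1317 to 1798 and 1138 to 2332 CPM in the aPD1 + aGMCSF, aPD1 + aIL2RB and aPD1 + aGMCSF + aIL2RB groups, with 6, 7 and 7 of 7 called lower than with aPD1. Ptprc (CD45), carried by all leukocytes, ranged from 149.7 to 180.4 CPM in isotype control, from 205 to 412.3 in aPD1, from 142 to 229.3 in aPD1 + aGMCSF, from 94.8 to 187.5 in aPD1 + aIL2RB and from 86.8 to 367.8 in aPD1 + aGMCSF + aIL2RB tumors. The 7 T cell markers summed to 30.6 to 55.4 CPM in isotype control, 65.3 to 130.4 in aPD1, 25.8 to 72.2 in aPD1 + aGMCSF, 3.23 to 29.3 in aPD1 + aIL2RB and 0.975 to 68.3 in aPD1 + aGMCSF + aIL2RB tumors. The sums of aPD1 and isotype control tumors did not overlap, while none of the 7 markers was called higher with aPD1 in edgeR, at an unadjusted p under 0.05 either. In the blocked groups 2, 6 and 7 were lower than with aPD1 in that order.

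The 3 markers of plasmacytoid dendritic cells, specialized producers of type I interferon, summed to 0.803 to 1.73 CPM in isotype control, 1.51 to 3.79 in aPD1, 0.537 to 1.60 in aPD1 + aGMCSF, 0.456 to 3.04 in aPD1 + aIL2RB and 0.623 to 3.30 in aPD1 + aGMCSF + aIL2RB tumors. No gene of the macrophage, T cell and plasmacytoid lists, nor Ptprc, was at 0 throughout a group.

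The 4 neutrophil markers, of which 2 passed the filter and Ly6g was at 0 throughout every group but aPD1 + aIL2RB, summed to 9.78 to 13.2 CPM in isotype control, 17.03 to 42.7 in aPD1, 8.66 to 16.9 in aPD1 + aGMCSF, 5.64 to 15.9 in aPD1 + aIL2RB and 4.32 to 29.02 in aPD1 + aGMCSF + aIL2RB tumors, without overlap between aPD1 and isotype control. The 4 NK cell markers summed to 7.05 to 9.40 CPM in isotype control, 7.29 to 22.2 in aPD1, 4.96 to 11.3 in aPD1 + aGMCSF, 0.806 to 3.16 in aPD1 + aIL2RB, where Ncr1 was at 0, and 0.527 to 5.13 in aPD1 + aGMCSF + aIL2RB tumors, and all 4 were called lower than with aPD1 in both groups with aIL2RB. All 3 fibroblast markers were called higher with aPD1 than with isotype control. The 3 markers of cDC2 and mature dendritic cells summed to 2.45 to 4.93 CPM in isotype control and 4.12 to 8.43 in aPD1 tumors, with 0 called in edgeR and 1 at an unadjusted p under 0.05, and the 3 cDC1 markers to 15.7 to 19.8 and 19.1 to 26.8 CPM, with 0 called and 0 at an unadjusted p under 0.05. Shisal2b, the single gene listed for MC38 cells, ran from 18.1 to 24.8 CPM in isotype control and from 8.80 to 21.4 in aPD1 tumors (-0.46 ± 0.20, adjusted p = 0.15), and it was higher than with aPD1 in aPD1 + aIL2RB tumors (0.70 ± 0.18, adjusted p = 0.00235). The shares of all genes to read these marker counts against are 6.17% higher with aPD1, and 8.75%, 14.5% and 14.3% lower than with aPD1 in the aPD1 + aGMCSF, aPD1 + aIL2RB and aPD1 + aGMCSF + aIL2RB groups. Both skeletal muscle markers were also higher with aPD1 than with isotype control, at a sum of 0.344 to 310.3 against 0.140 to 14.02 CPM. Reads of ribosomal RNA genes made up 4.57% to 17.9% of counts in aPD1 tumors (median 9.00%) and 1.72% to 8.55% in isotype control tumors (median 6.71%). Their medians were 6.55%, 6.63% and 7.25% in the aPD1 + aGMCSF, aPD1 + aIL2RB and aPD1 + aGMCSF + aIL2RB groups. The part of each of these in the differences of the antiviral genes was not tested.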

How the data were processed

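Poly(A) RNA of 42 bulk tumors was sequenced as 100 bp read pairs. The authors aligned reads with Bowtie 1.2.3 to transcriptomes of the Collaborative Cross founders (GENCODE vM23, GRCm38/mm10) and deposited total expected counts per gene, summed over founder alleles, as gbrs estimates them. Of the deposited values, 15.2% were not whole, because a read that fits several transcripts is divided. Whether the counting used strand is not given in the sources used here.

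Counts were rounded and tested with edgeR 4.0.16 in R 4.3.3 (filterByExpr, count at least 10 and total at least 15, TMM, quasi-likelihood test of 1 factor of 5 groups over all tumors), and p-values were adjusted by Benjamini-Hochberg over 16932 genes in each of 10 comparisons, with a threshold of 0.05. The SE of a log2 fold change was its size divided by the square root of F. CPM used TMM library sizes, and log2 CPM for the score a prior count of 2. The edgeR fit was tried on simulated counts for the comparison of aPD1 with isotype control, and the other steps were not tested in this way.

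The members and all gene lists were chosen with earlier results of these data known. Statistics were printed for the members with the highest and the lowest aPD1 change in each role and for the 6 with the largest change in a comparison, and other members were named with their changes. Replicates are labelled as biological, and no pair of libraries agreed within sampling noise (lowest chi-square per degree of freedom 5.44). Alternatives were other normalizations, filters and tools (DESeq2 1.42.0), the replicate block, the ranges of replicate numbers and omitted tumors. Figures and tables used Python 3.11.15 with pandas 2.3.3 and matplotlib 3.10.9.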

Additional observations from a re-analysis of the deposited data

Results flagged for a closer look

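Of 120 sets of values examined (the members and the score in each group of 4 to 10 tumors), 2 had a tumor that stood apart from the rest by Dixon's criterion, which chance alone meets in about 1 in 20 groups. Both were aPD1 + aGMCSF replicate 5. It had 7.766 CPM of Oasl1, where the next tumor of its group had 12.13 and the highest 15.85, and 53.99 CPM of Bst2, where the next had 67.58 and the highest 79.76. The groups with aIL2RB, of 11 tumors each, were not examined, so none of their tumors could be flagged. Among these, aPD1 + aGMCSF + aIL2RB replicate 1 scored 1.94, where the next tumor of its group scored 0.48 and the lowest -0.58.

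The comparisons differed between the ranges of replicate numbers by an interaction test in edgeR (adjusted over all genes) for 3 members in aPD1 against isotype control (Ifit2, Ifit3 and Rsad2) and for 17 in aPD1 + aGMCSF + aIL2RB against aPD1. In the last, the difference from aPD1 was more negative in the second range for all 17, which include Ifit2, Ifit3, Oas3, Oasl1, Mx1, Irf7 and Stat2, and 1554 of all genes passed the same test.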

How the results depend on the processing

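The main limits are the 5 isotype control and 6 aPD1 tumors that most comparisons share, the ranges of replicate numbers, and reads divided between near copies. Of the alternative values for the counts of members called, 112 kept the direction and stayed within 1.5 times the main count, and 30 did not. Alternatives for the group scores are not in this tally. Of the alternative values for single members, 2053 kept direction and side of the threshold, 313 lost the call and 3 reversed. In the first range alone, the calls were 0 for aPD1 against isotype control, 0, 2 and 0 for aPD1 + aGMCSF, aPD1 + aIL2RB and aPD1 + aGMCSF + aIL2RB against aPD1, 0 for aPD1 + aIL2RB and 0 for aPD1 + aGMCSF + aIL2RB against isotype control, and 0 for aPD1 + aGMCSF + aIL2RB against aPD1 + aGMCSF, with fewer tumors in each fit. There the log2 fold change of Ifit1 with aPD1 was -0.04148 (adjusted p = 0.976), and those of Ifit3 and Ifih1 with aPD1 + aGMCSF + aIL2RB against aPD1 were 0.1427 (adjusted p = 0.784) and 0.008499 (adjusted p = 0.984), all from edgeR. The Irf9 call with aPD1 was lost with library sizes alone (adjusted p = 0.0897) and with all genes of at least 5 counts in total (adjusted p = 0.0626).

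For aPD1 + aIL2RB against isotype control (2 members called), the count was 1 with library sizes alone, 0 with all genes of at least 5 counts in total, 14 in the second range, 4 with DESeq2 and 0 to 5 when an isotype control tumor was left out. For aPD1 + aGMCSF + aIL2RB against isotype control (15 called), it was 9 when only these groups were fitted, 10 with all genes of at least 5 counts, and 5 to 16 with a tumor left out. For aPD1 + aGMCSF + aIL2RB against aPD1 + aGMCSF (4 called), it was 2 with DESeq2 size factors, 0 with all genes of at least 5 counts, 7 when only these groups were fitted, 7 with the range as a term, 12 in the second range, 7 with DESeq2 and 1 to 3 with a tumor left out. The counts with aPD1 + aGMCSF + aIL2RB replicate 1 or 4 left out, and the interaction with the range, were chosen after seeing the data. The cause of these changes was not tested.

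Tumors were left out in turn from the isotype control and aPD1 groups, and otherwise only aPD1 + aGMCSF + aIL2RB replicates 1 and 4 were, so no aPD1 + aGMCSF or aPD1 + aIL2RB tumor was. With a tumor left out in this way, 27 to 34 members were called for aPD1 against isotype control, and 31 to 36, 26 to 33 and 19 to 30 for aPD1 + aGMCSF, aPD1 + aIL2RB and aPD1 + aGMCSF + aIL2RB against aPD1, with 1 of the 19, without aPD1 replicate 6, higher. The shared replicate numbers were not treated as pairs in the main test. The correlation of same-numbered deviations exceeded 0.1 in 1 to 4 pairs of each comparison. Its mean ran from -0.019 (aPD1 + aIL2RB against isotype control) to 0.0716 (aPD1 + aIL2RB against aPD1 + aGMCSF). These values cannot settle whether tumors with the same number belong together. With the replicate block, 34 members were called for aPD1 against isotype control, 34, 28 and 25 for the blocked groups against aPD1 (1 of the 25 higher), 9 and 17 for aPD1 + aIL2RB and aPD1 + aGMCSF + aIL2RB against isotype control, and 8 for aPD1 + aGMCSF + aIL2RB against aPD1 + aGMCSF.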
